A study of Homo sapiens with 12 samples.

Results

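Interferon-stimulated genes are the transcripts that cells turn on when they meet interferon or viral nucleic acid. A set of 42 of them was read from a table of 63677 genes, by matching gene IDs to symbols, and all 42 were found under their current symbols. Genes of the GBP and HLA families are not among them. They were measured by RNA sequencing in LNCaP, a human prostate cancer line that responds to androgen, after USP22, the ubiquitin protease of the SAGA coactivator complex, had been lowered or raised.

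The 12 libraries formed 4 groups of 3. Cells of the USP22 depletion group carried the shRNA 4693 against USP22, and cells of the shRNA control group carried a control shRNA. Over 5 days both shRNA groups received doxycycline (1 ug/mL), renewed every 48 hours. Cells of the USP22 overexpression group carried extra USP22, and their vector control carried pLPLUC. The labels name no doxycycline for these last groups. All cells grew in hormone-proficient medium. Each arm used a single cell line and, for depletion, a single shRNA. The labels do not say whether the 3 replicates of a group were separate cultures, so the p-values cover the spread of the libraries sequenced, and that spread may be technical.

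Interferons bind receptors at the cell surface, whose Janus kinases phosphorylate STAT proteins. STAT proteins, STAT2 among them, then join IRF9 in a complex that binds the interferon-stimulated response element in promoters, and STAT dimers bind the gamma-activated site. Many of the induced proteins block viral entry, translation or replication, others sense viral RNA or carry the signal on, and in prostate cancer cells, as in other tumours, part of the set is expressed without infection.

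Counted reads per library ran between 77607469 and 103690001. Levels are given as CPM (counts per 1000000 reads of the TMM-scaled library size), and a gene is called where the edgeR quasi-likelihood test gives a Benjamini-Hochberg adjusted p under 0.05 over all 26076 genes tested. USP22 followed the labels, at 251 to 265 CPM in depletion against 473 to 479.7 CPM in the shRNA control, and at 1406 to 1498 CPM in overexpression against 482 to 565 CPM in the vector control. Vector control replicate 3 stood apart, with an SD of its log2 values around its group mates of 0.37, against 0.22 for each of the other vector control libraries. Of 8 luminal prostate markers all were expressed in every group, with a summed level of 4270.4 to 4731 CPM in depletion, 5889 to 6039 CPM in the shRNA control, 4443 to 4582 CPM in overexpression and 4715 to 5005 CPM in the vector control. Markers of leukocytes, which respond strongly to interferon, summed to 0.421 to 0.541 CPM in depletion, 0.314 to 0.389 CPM in the shRNA control, 0.329 to 0.582 CPM in overexpression and 0.487 to 0.705 CPM in the vector control. Of these 6 markers CD14, ITGAM and NKG7 passed the filter, and none was called on depletion or overexpression. CD14, with 139 reads over all libraries, was called lower in the shRNA control than in the vector control (log2 fold change -1.40). PTPRC and CD3E held 39 and 14 reads over all libraries.

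The promoters of the genes were searched for the core of the response element, read as GAAA, any 2 bases and GAAA, on both strands. RefSeq windows on GRCh38.p14, of 250 bases before to 50 bases after each start, were at hand for 36 of the 42 genes, in 47 promoters. The core was found in 26 of the 36 genes (72.2%) and in 31 of the 47 promoters (66.0%), against 1195 of all 27305 genes with such windows (4.38%) and 3.57% of their 35116 promoters. Those 27305 genes were not limited to genes counted or tested here. The gamma-activated site, read as TTC, any 3 bases and GAA, which reads alike on both strands, was in 12 of the 36 genes (33.3%) and in 9.38% of the 27305 genes. Matches of both motifs overlapped in 6 promoters. The lines below give the stretch around the core, in capitals, 5′ to 3′ on the gene's strand, for 6 genes whose cores all lie before the start. They are those called most often in 3 comparisons (depletion, overexpression, and shRNA control against vector control), with ties broken by the size of the log2 fold change on depletion. They are shown as examples of genes with both a core and a call, and other called genes hold a core or hold none. PARP14 lies at chr3:122680780-122680838 on the plus strand, DDX60 at chr4:168318766-168318870 on the minus strand, IFIT3, at the first of its starts, at chr10:89327811-89327914 on the plus strand, LGALS3BP at chr17:78979942-78980011 on the minus strand, IFIT1 at chr10:89392477-89392559 on the plus strand and IFITM3 at chr11:320861-320942 on the minus strand.
PARP14: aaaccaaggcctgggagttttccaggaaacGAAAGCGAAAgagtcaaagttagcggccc
DDX60: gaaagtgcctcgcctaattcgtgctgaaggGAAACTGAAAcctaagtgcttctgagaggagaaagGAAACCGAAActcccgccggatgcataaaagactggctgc
IFIT3: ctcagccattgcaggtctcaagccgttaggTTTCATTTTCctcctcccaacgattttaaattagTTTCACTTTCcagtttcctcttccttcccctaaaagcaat
LGALS3BP: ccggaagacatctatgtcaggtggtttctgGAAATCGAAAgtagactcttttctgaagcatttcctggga
IFIT1: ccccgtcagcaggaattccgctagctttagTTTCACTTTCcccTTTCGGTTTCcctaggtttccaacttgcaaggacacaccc
IFITM3: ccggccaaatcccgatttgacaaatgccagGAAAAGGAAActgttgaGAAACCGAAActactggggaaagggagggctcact
The core stood once in PARP14 and LGALS3BP and in 2 copies in DDX60, IFIT3, IFIT1 and IFITM3, and IFIT1 and IFIT3 hold it on the opposite strand, as TTTC, any 2 bases and TTTC. A match describes the letters only and is no evidence of binding.

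**Figure D1:**
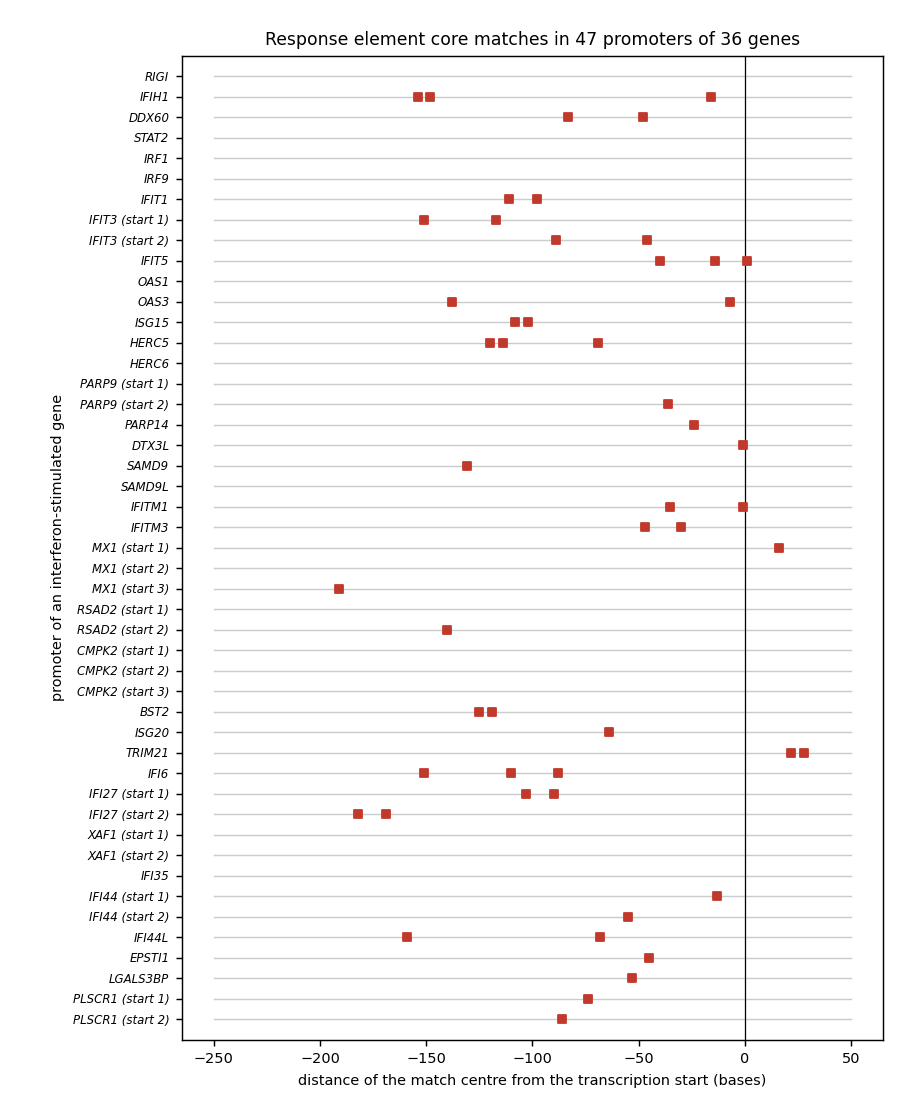
Matches of the response element core in RefSeq promoters of interferon-stimulated genes. Each line is a promoter of 250 bases before to 50 bases after the start (x axis, bases from the start), and each square is the centre of a match. The 31 promoters with a match hold it mostly before the start, and CMPK2, RIGI, STAT2, IRF1, IRF9, OAS1, HERC6, SAMD9L, XAF1 and IFI35 show none.

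Of the 42 genes, 41 passed the filter on low counts and were tested. XAF1, an antagonist of an apoptosis inhibitor, was not tested, with 47 reads in all libraries together. Whether both mates of a read pair were counted is not stated, so read numbers need not be numbers of molecules. Per kilobase of exon (GENCODE 29 lengths), ISG15 was the most abundant, at 43.7 CPM in depletion, 52.6 CPM in the shRNA control, 30.5 CPM in overexpression and 35.7 CPM in the vector control, followed by IFITM3 at 32.3, 42.4, 19.1 and 17.6 CPM per kilobase in the same order of groups. In 10 genes every library reached 10 CPM, and OAS2, SAMD9L, IFITM1, BST2, XAF1 and IFI44L stayed under 1 CPM in every library. The highest group mean was in the shRNA control for 32 of the 41 tested genes, in depletion for 6, in overexpression for IFIH1 and PLSCR1, and in the vector control for OAS3. The lowest was in the vector control for 22.

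**Figure D2:**
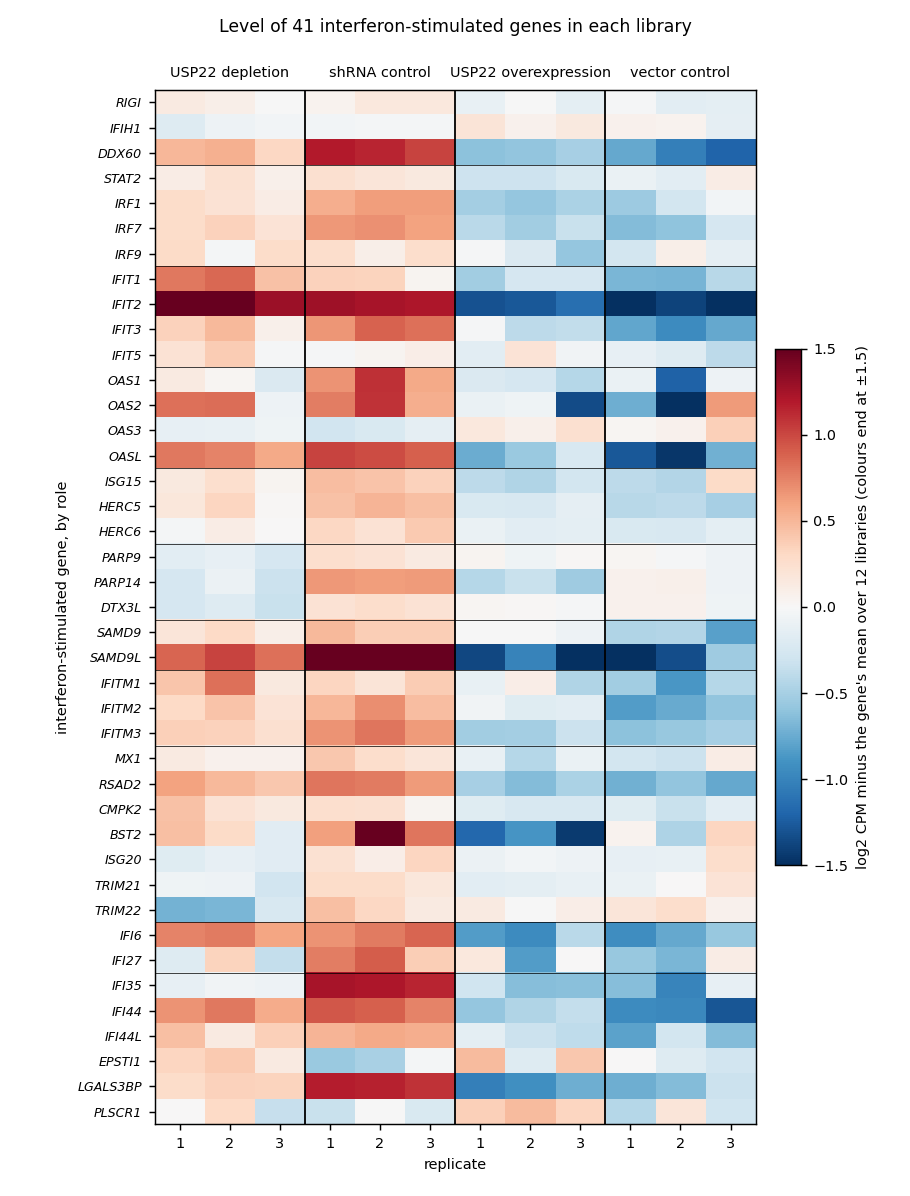
Level of each of the 41 tested genes in each library, as log2 CPM minus the gene's mean over the 12 libraries (colour, ending at ±1.5), with genes grouped by role down the page and libraries by group and replicate across it. The shRNA control libraries are the darkest red in most rows, and the depletion libraries stand above the overexpression and vector control libraries for IFIT2, OASL, IFI6, IFI44 and RSAD2.

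With USP22 lowered, the genes stood mostly below their shRNA control. Of 41 tested genes 17 fell and 3 rose, against 10.4% of all tested genes lower and 9.4% higher, and the median log2 fold change was -0.26, against 0.00 over all genes tested. IFI35, PARP14, TRIM22, LGALS3BP, OAS1 and DDX60 fell by the most among genes above 1 CPM, and EPSTI1, IFIT1 and IFIT2 rose. The count of 20 fell when a library of either group was left out: it was 13 without shRNA control replicate 2, 13 without shRNA control replicate 3, 12 without depletion replicate 1 and 13 without depletion replicate 3. Over all genes tested the 5172 calls fell as well, to 4070, 3837, 3653 and 4403 in the same order. Without vector control replicate 3, which enters the shared estimate of spread, the count of the set was 25. Over all genes 8359 of 26896 were then called, against 5172 of 26076 in the reported fit. DDX60, DTX3L, IFI35, IFITM3, LGALS3BP, PARP14, PARP9, TRIM21 and TRIM22 were called lower whichever library was left out. Of 17 marker genes tested 2 rose, FOLH1 and VWF, and 7 fell, KLK3, TMPRSS2, KRT8, COL3A1 and VIM among them, and their part in the result was not tested. In bulk RNA, fewer cells that express a gene and less of its RNA per cell cannot be told apart.

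With USP22 raised, few of the genes changed. IFITM2, IFI44, IFIT3, SAMD9 and DDX60 rose, and PARP14 fell, so that 5 of 41 were higher and 1 lower, against 1.51% of all tested genes higher and 2.6% lower. The median log2 fold change was 0.07, against -0.01 over all genes tested. IFITM2, IFI44 and SAMD9 were called whichever library was left out, while IFITM2 alone stayed called with only the 6 libraries compared in the fit, where the count was 1. The count was 3 without overexpression replicate 3 and 7 without vector control replicate 3. Over all genes the 1072 calls changed as well, to 630 and 1842 in the same order, and to 327 with only the 6 libraries compared. KLK3 was the single marker gene of the 17 tested that was called, and it was lower.

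The controls of both arms differed by more than either arm did from its control. In the shRNA control 31 of 41 genes were higher than in the vector control and OAS3 was lower, against 21.7% of all tested genes higher and 21.3% lower, with a median log2 difference of 0.90, against 0.02 over all genes tested. IFIT2, DDX60, OASL, IFI44, IFI35 and LGALS3BP had the largest differences above 1 CPM. The shRNA vector, doxycycline, pLPLUC and any other difference between the arms, such as separate handling, cannot be told apart in this comparison. The comparison shares its libraries with both others. Of the 17 marker genes tested in it, 8 were higher in the shRNA control, VIM, KRT14, COL1A1, FOLH1, TMPRSS2 and KRT8 among them, and 5 were lower, so the controls also differed outside interferon-stimulated genes. Their part in the result was not tested. Without vector control replicate 3, 35 of the 41 genes were called. Over all genes 12344 of 26896 were then called, against 11211 of 26076 in the reported fit.

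**Figure D3:**
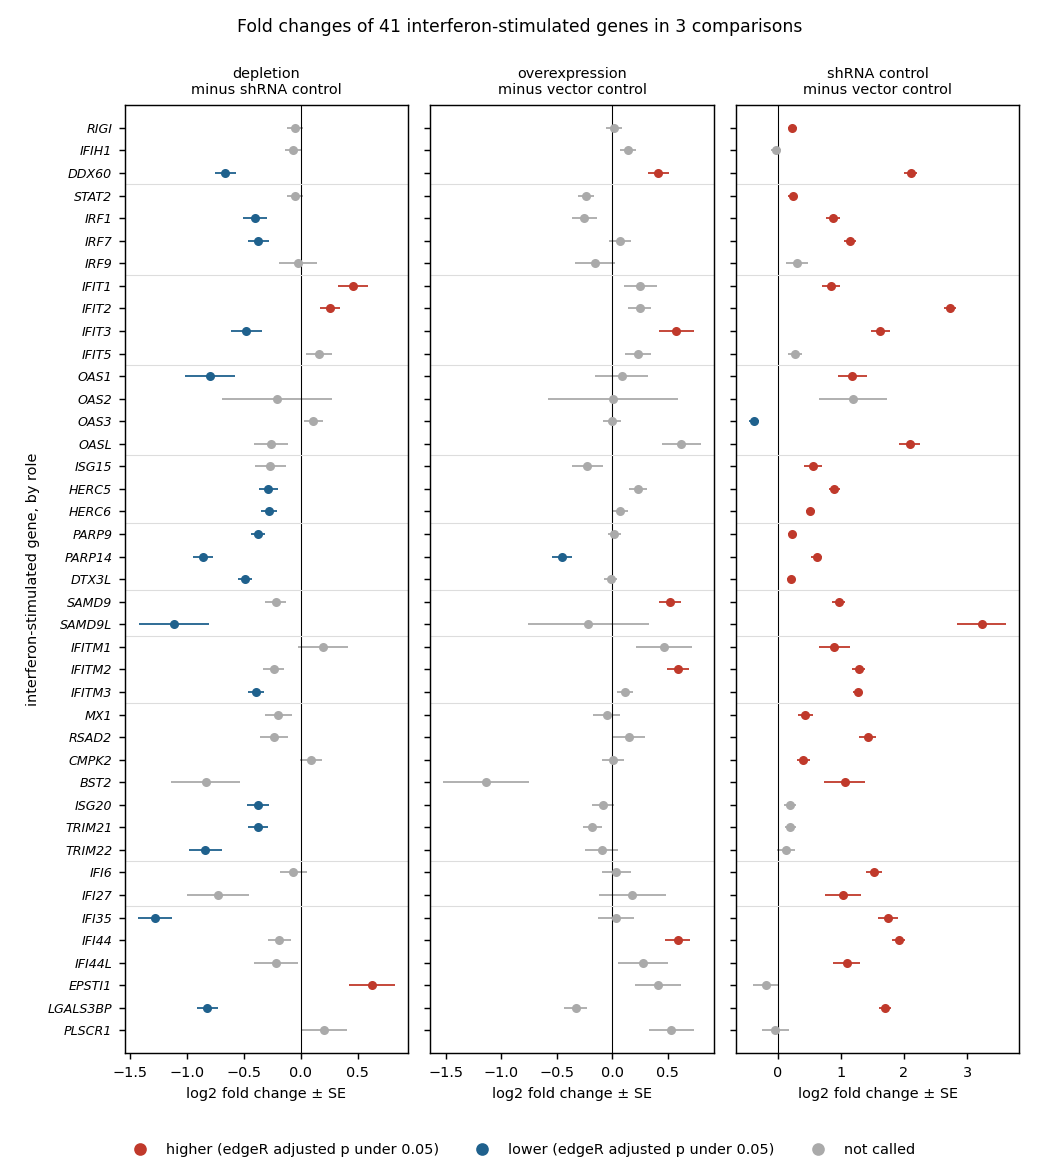
Log2 fold change with its SE (x axis) of the 41 tested genes, by role down the page, for depletion minus shRNA control, overexpression minus vector control and shRNA control minus vector control. Red marks genes called higher and blue genes called lower; blue outnumbers red in the depletion panel (17 and 3), and red outnumbers blue in the panel of the controls (31 and 1).

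Because of this difference, depletion was also set against the vector control, in a comparison added after the data were seen. That comparison joins the lowering of USP22 with the shRNA vector, doxycycline and any other difference between the arms. There 22 of 41 genes were higher and 4 lower, against 16.2% of all tested genes higher and 18.6% lower, with a median log2 difference of 0.46. IFIT2 (log2 fold change 2.99, edgeR adjusted p = 4.19e-12), OASL (log2 fold change 1.82, edgeR adjusted p = 4.35e-07) and IFI44 (log2 fold change 1.72, edgeR adjusted p = 6.54e-09) stood highest among genes above 1 CPM. TRIM22 (log2 fold change -0.70, edgeR adjusted p = 0.00164) and DTX3L (log2 fold change -0.28, edgeR adjusted p = 0.00159) were lower, as were OAS3 and PARP14. OAS3 lost that call without any depletion replicate (log2 fold change -0.25 to -0.22, adjusted p = 0.0511 to 0.0921) and with only the 6 libraries compared (log2 fold change -0.23, adjusted p = 0.105), all in edgeR. PARP14 (log2 fold change -0.24, edgeR adjusted p = 0.0493) lost it without depletion replicate 1 or 3, any overexpression replicate, any shRNA control replicate or vector control replicate 1 or 2 (log2 fold change -0.24 to -0.17, adjusted p = 0.0542 to 0.241), with RLE scaling (log2 fold change -0.24, adjusted p = 0.0537), among genes with 1 CPM or more in 3 or more libraries (log2 fold change -0.20, adjusted p = 0.0714), by limma voom (log2 fold change -0.24, adjusted p = 0.0544), with no filter on low counts (log2 fold change -0.19, adjusted p = 0.261) and with only the 6 libraries compared (log2 fold change -0.21, adjusted p = 0.201). Without vector control replicate 3 the count of called genes of the set was 32. Over all genes 10422 of 26896 were then called, against 9081 of 26076 in the reported fit.

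**Figure D4:**
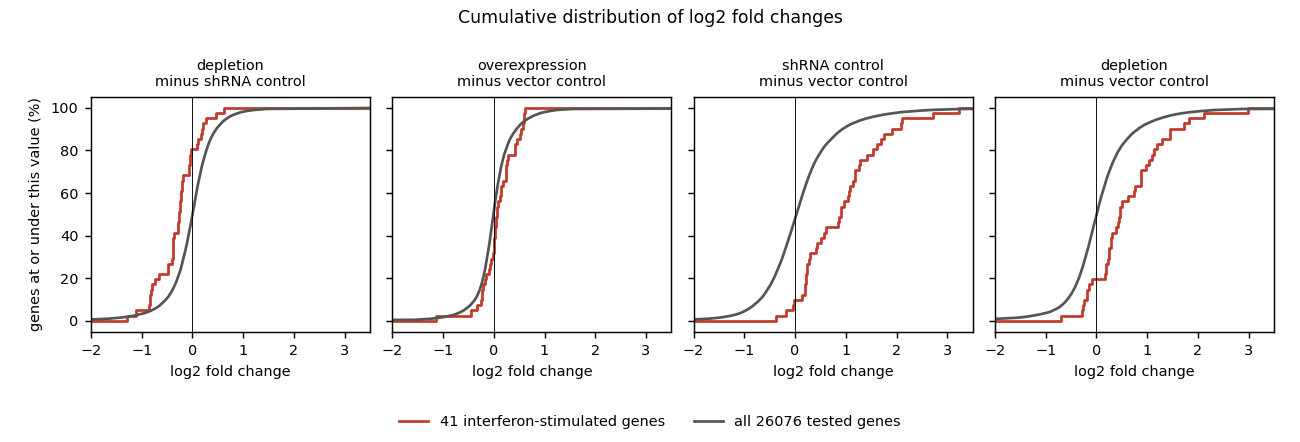
Cumulative share of genes (y axis, %) by log2 fold change (x axis) for the 41 tested interferon-stimulated genes (red) and all 26076 tested genes (grey), in 4 comparisons. The red line lies left of the grey one for depletion minus shRNA control (median -0.26 against 0.00), close to it for overexpression minus vector control (0.07 against -0.01), and right of it for the comparisons of shRNA control and depletion with the vector control (0.90 and 0.46 against 0.02 and 0.00).

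The responses to overexpression and to depletion, each against its own control, share no libraries. Their difference, the overexpression response minus the depletion response, was tested directly. It was called above 0 for 15 of 41 genes and below 0 for none, against 4.91% of all tested genes above and 5.98% below, with a median of 0.35 on the log2 scale, against 0.00 over all genes tested. A difference above 0 can come from either response alone. The median of the set was 0.07 on overexpression, where 5 genes were called higher, and -0.26 on depletion. Without vector control replicate 3, 21 genes of the set were called. Over all genes 5320 of 26896 were then called, against 2840 of 26076 in the reported fit. With edgeR unadjusted p under 0.05, 0 genes were below 0, and DESeq2 and limma voom called 0 below as well. IFI35 (log2 fold change 1.32, edgeR adjusted p = 0.0012), DDX60 (log2 fold change 1.08, edgeR adjusted p = 8.95e-05) and IFIT3 (log2 fold change 1.06, edgeR adjusted p = 0.00368) had the largest differences, and IFI44, SAMD9, IFITM2, IFITM3, PARP9, DTX3L and HERC5 were called as well, whichever library was left out. OASL (0.88) lost the call without overexpression replicate 3 (log2 fold change 0.74, adjusted p = 0.0674) by edgeR. LGALS3BP (0.49) lost it without any depletion replicate, overexpression replicate 2 or 3, shRNA control replicate 1 or 2 or vector control replicate 1 or 2 (log2 fold change 0.40 to 0.51, adjusted p = 0.0518 to 0.106), and TRIM22 (0.74) lost it without depletion replicate 1 or 2, overexpression replicate 1 or 3 or shRNA control replicate 1 or 2 (log2 fold change 0.66 to 0.73, adjusted p = 0.0638 to 0.0973). IRF7 (0.44) lost it without any depletion replicate, any overexpression replicate, any shRNA control replicate or vector control replicate 1 or 2 (log2 fold change 0.37 to 0.49, adjusted p = 0.0533 to 0.118), and HERC6 (0.35) without depletion replicate 1 or 3, any overexpression replicate, shRNA control replicate 1 or 3 or vector control replicate 1 or 2 (log2 fold change 0.31 to 0.36, adjusted p = 0.0663 to 0.107) and with no filter on low counts (log2 fold change 0.34, adjusted p = 0.0954).

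Sensors of viral RNA stand at the head of the pathway. DDX60, a helicase described as an aid to RIG-I signalling, stood at 30.05, 30.9 and 26.5 CPM in the depletion libraries and 48.3, 46.9 and 43.1 CPM in the shRNA control. DDX60 was at 13.9, 14.1 and 15.0 CPM in the overexpression libraries and 12.5, 10.5 and 9.25 CPM in the vector control. No groups overlapped. It fell on depletion (log2 fold change -0.66, SE 0.09, edgeR adjusted p = 8.89e-05), was 4.30 times as high in the shRNA control as in the vector control (log2 fold change 2.10, edgeR adjusted p = 1.71e-10) and rose on overexpression (log2 fold change 0.42, edgeR adjusted p = 0.0229). On overexpression DDX60 lost its call without any overexpression replicate or vector control replicate 2 (log2 fold change 0.38 to 0.44, adjusted p = 0.0531 to 0.102) and with only the 6 libraries compared (log2 fold change 0.43, adjusted p = 0.152) by edgeR. RIGI, the sensor RIG-I itself, averaged 16.0 ± 0.801 CPM in depletion and 16.6 ± 0.685 CPM in the shRNA control, and 14.3 ± 0.707 CPM in overexpression and 14.2 ± 0.810 CPM in the vector control (SD, n = 3 each). Only the difference between its controls was called (log2 fold change 0.23, edgeR adjusted p = 0.0167), and it was lost without shRNA control replicate 2 or 3 or vector control replicate 2 (log2 fold change 0.20 to 0.22, adjusted p = 0.057 to 0.0723) and with only the 6 libraries compared (log2 fold change 0.24, adjusted p = 0.0528). IFIH1, the sensor MDA5, was not called in any of these comparisons, with log2 fold changes of -0.07 on depletion, 0.14 on overexpression and -0.03 between the controls.

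The transcription factors differed among themselves. IRF1, which activates many of these promoters, stood at 5.90, 5.70 and 5.28 CPM in the depletion libraries and 7.15, 7.58 and 7.58 CPM in the shRNA control. IRF1 was at 3.43, 3.27 and 3.52 CPM in the overexpression libraries and 3.37, 4.06 and 4.76 CPM in the vector control. It was lower on depletion (log2 fold change -0.40, SE 0.11, edgeR adjusted p = 0.014) and higher in the shRNA control than in the vector control (log2 fold change 0.87, edgeR adjusted p = 7.89e-06). The depletion call was lost without depletion replicate 3 or shRNA control replicate 2 or 3 (log2 fold change -0.37 to -0.33, adjusted p = 0.055 to 0.07) by edgeR.

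IRF7, which drives interferon genes themselves, stood at 16.0, 16.8 and 15.3 CPM in the depletion libraries and 20.9, 21.3 and 20.2 CPM in the shRNA control. IRF7 was at 10.01, 9.21 and 10.5 CPM in the overexpression libraries and 8.46, 8.73 and 11.1 CPM in the vector control. It followed IRF1, lower on depletion (log2 fold change -0.37, edgeR adjusted p = 0.00906) and higher between the controls (log2 fold change 1.139, edgeR adjusted p = 8.81e-08), with overlap between overexpression and vector control. Its depletion call was lost without depletion replicate 3 (log2 fold change -0.31, adjusted p = 0.0511) by edgeR. STAT2, part of the complex that binds the response element, stood at 86.5, 94.1 and 84.9 CPM in the depletion libraries and 95.1, 91.2 and 89.0 CPM in the shRNA control. STAT2 was at 65.0, 64.6 and 68.4 CPM in the overexpression libraries and 74.9, 72.2 and 86.5 CPM in the vector control. It was called between the controls only (log2 fold change 0.24, edgeR adjusted p = 0.0122), where it was lost without shRNA control replicate 1 or vector control replicate 1 or 2 (log2 fold change 0.18 to 0.21, adjusted p = 0.0503 to 0.0678), and by edgeR its overexpression value of -0.24 had an adjusted p of 0.0728. STAT2 was called lower on overexpression by DESeq2 and without vector control replicate 2. IRF9, their DNA-binding partner, stood at 1.41, 1.13 and 1.39 CPM in the depletion libraries and 1.38, 1.22 and 1.38 CPM in the shRNA control. IRF9 was at 1.1403, 0.998 and 0.775 CPM in the overexpression libraries and 0.953, 1.23 and 1.06 CPM in the vector control. Its groups overlapped in every comparison and it was called in none, with an SE of 0.17 to 0.18 on the log2 scale in each. IRF9 shares its place with a further gene on the same strand and IRF1 with one on the opposite strand, so reads may be split there.

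The IFIT proteins bind viral RNA and stop its translation, and their 4 genes lie in a cluster. IFIT2 stood at 24.7, 26.2 and 20.4 CPM in the depletion libraries and 20.2, 19.9 and 19.4 CPM in the shRNA control. IFIT2 was at 3.39, 3.48 and 3.82 CPM in the overexpression libraries and 2.82, 3.22 and 2.95 CPM in the vector control. It was 6.62 times as high in the shRNA control as in the vector control (log2 fold change 2.73, SE 0.10, edgeR adjusted p = 1.39e-11). No other gene of the set above 1 CPM differed as much between the controls. On depletion it stood above the shRNA control in all 3 libraries (log2 fold change 0.26, edgeR adjusted p = 0.048). IFIT2 lost that call without depletion replicate 1 or 2, any overexpression replicate or any shRNA control replicate (log2 fold change 0.21 to 0.30, adjusted p = 0.0572 to 0.176) and with a replicate block (log2 fold change 0.26, adjusted p = 0.0508) by edgeR.

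IFIT1 stood at 5.33, 5.57 and 4.16 CPM in the depletion libraries and 3.90, 3.87 and 3.17 CPM in the shRNA control. IFIT1 was at 2.14, 2.58 and 2.59 CPM in the overexpression libraries and 1.92, 1.90 and 2.31 CPM in the vector control. It too was higher on depletion than in the shRNA control (log2 fold change 0.46, SE 0.13, edgeR adjusted p = 0.0216) and higher in the shRNA control than in the vector control (log2 fold change 0.84, edgeR adjusted p = 0.000159). The depletion call was lost without depletion replicate 1 or 2 or shRNA control replicate 3 (log2 fold change 0.39 to 0.44, adjusted p = 0.0754 to 0.0915) by edgeR. IFIT3, whose protein binds that of IFIT1, stood at 2.38, 2.62 and 1.97 CPM in the depletion libraries and 2.96, 3.47 and 3.32 CPM in the shRNA control. IFIT3 was at 1.85, 1.42 and 1.45 CPM in the overexpression libraries and 1.09, 0.975 and 1.10 CPM in the vector control. It went the other way on depletion (log2 fold change -0.48, SE 0.14, edgeR adjusted p = 0.021), and was higher on overexpression (log2 fold change 0.58, edgeR adjusted p = 0.0498) and between the controls (log2 fold change 1.62, edgeR adjusted p = 2.56e-07). IFIT3 lost its depletion call without depletion replicate 1 or 3 or shRNA control replicate 2 or 3 (log2 fold change -0.47 to -0.35, adjusted p = 0.0709 to 0.115) and its overexpression call without depletion replicate 1, any overexpression replicate, any shRNA control replicate or vector control replicate 1 or 2 (log2 fold change 0.44 to 0.65, adjusted p = 0.0592 to 0.23), by limma voom (log2 fold change 0.57, adjusted p = 0.095), with only the 6 libraries compared (log2 fold change 0.60, adjusted p = 0.163) and with a replicate block (log2 fold change 0.58, adjusted p = 0.0646). IFIT5 stood at 10.4, 11.6 and 8.80 CPM in the depletion libraries and 8.78, 9.16 and 9.57 CPM in the shRNA control. IFIT5 was at 7.99, 10.3 and 8.56 CPM in the overexpression libraries and 8.17, 7.81 and 6.81 CPM in the vector control. It was called in none of the 3 comparisons, with log2 fold change 0.27, edgeR adjusted p = 0.0661 between the controls. Under either other filter setting and with a replicate block, IFIT5 was called higher between the controls. LIPA lies over IFIT1, IFIT2 and IFIT3 on the opposite strand, with 61723 reads in all, and the strand setting of the counting is not given in the sources used here.

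**Figure D5:**
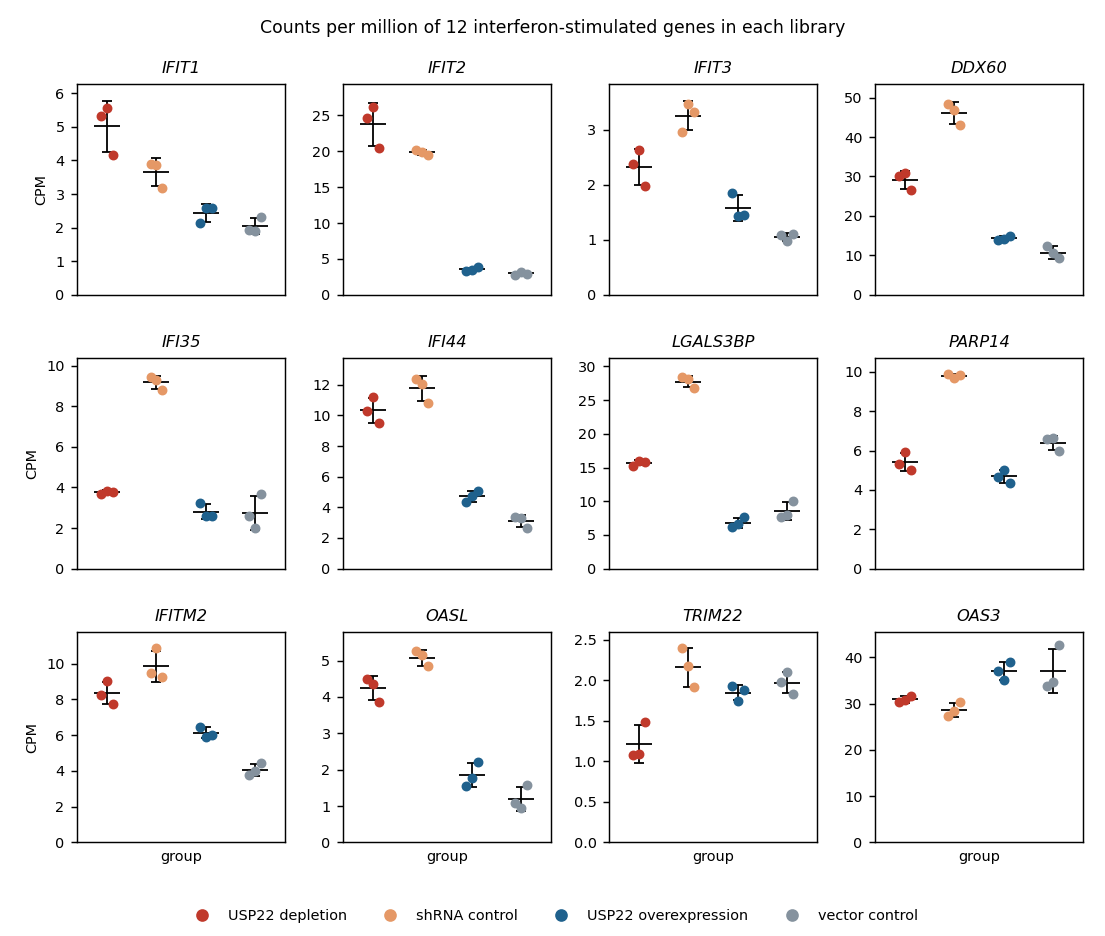
CPM (y axis, from 0) of 12 of the genes in each library, with points for the 3 libraries of a group and bars for the mean and SD; the groups run, left to right, USP22 depletion, shRNA control, USP22 overexpression and vector control. IFIT1 and IFIT2 are highest in depletion, TRIM22 is lowest in it, and most of the others peak in the shRNA control.

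The OAS enzymes make oligoadenylates, a signal for the decay of RNA, when they meet double-stranded RNA. OAS1 stood at 1.71, 1.58 and 1.33 CPM in the depletion libraries and 2.47, 3.32 and 2.30 CPM in the shRNA control. OAS1 was at 1.33, 1.30 and 1.15 CPM in the overexpression libraries and 1.45, 0.670 and 1.47 CPM in the vector control. It was lower on depletion (log2 fold change -0.80, edgeR adjusted p = 0.0167) and higher between the controls (log2 fold change 1.18, edgeR adjusted p = 0.000531), and its depletion call was lost without depletion replicate 2 or 3 or shRNA control replicate 2 (log2 fold change -0.80 to -0.60, adjusted p = 0.0556 to 0.104) by edgeR. OASL, a relative without the enzyme activity, stood at 4.49, 4.35 and 3.86 CPM in the depletion libraries and 5.25, 5.14 and 4.84 CPM in the shRNA control. OASL was at 1.56, 1.78 and 2.20 CPM in the overexpression libraries and 1.08, 0.951 and 1.58 CPM in the vector control. It was 4.24 times as high in the shRNA control as in the vector control (log2 fold change 2.09, SE 0.17, edgeR adjusted p = 4.72e-08), and was called neither on depletion (-0.26) nor on overexpression (0.62, edgeR adjusted p = 0.0585). OASL was called higher on overexpression by DESeq2, under either other filter setting and without vector control replicate 3. With only the 6 libraries compared it was called lower on depletion. OAS3, which makes long oligoadenylates, stood at 30.4, 30.7 and 31.8 CPM in the depletion libraries and 27.3, 28.4 and 30.3 CPM in the shRNA control. OAS3 was at 37.0, 35.0 and 39.0 CPM in the overexpression libraries and 33.9, 34.7 and 42.6 CPM in the vector control. It alone of the set was lower in the shRNA control than in the vector control by the test (log2 fold change -0.37, edgeR adjusted p = 0.00167). OAS2 held 165 reads in all libraries and was called in no comparison of the reported fit. By limma voom and without vector control replicate 3 it was called higher between the controls.

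ISG15 is a ubiquitin-like protein that HERC5 attaches to new proteins, and HERC6 is the relative of HERC5 that does so in mouse. ISG15 averaged 41.2 ± 3.03 CPM in depletion and 49.5 ± 1.95 CPM in the shRNA control, and 28.7 ± 1.86 CPM in overexpression and 33.6 ± 10.04 CPM in the vector control (SD, n = 3 each). Vector control replicate 3 stood well above its mates, at 45.2 CPM against 28.2 and 27.4 CPM. In the reported fit ISG15 was called between the controls only (log2 fold change 0.56, edgeR adjusted p = 0.00358). Its depletion libraries, at 38.2 to 44.3 CPM, lay below those of the shRNA control, at 47.3 to 51.1 CPM. It was called lower on depletion with no filter on low counts, with only the 6 libraries compared and without vector control replicate 3. HERC5 (log2 fold change -0.28, edgeR adjusted p = 0.0217) and HERC6 (log2 fold change -0.28, edgeR adjusted p = 0.011) fell on depletion and were higher between the controls (0.90 and 0.52). HERC5 lost its depletion call without depletion replicate 1 or 3 or any shRNA control replicate (log2 fold change -0.28 to -0.19, adjusted p = 0.0757 to 0.156) and with no filter on low counts (log2 fold change -0.26, adjusted p = 0.0633), and HERC6 lost it without depletion replicate 1 or 3 or shRNA control replicate 1 or 3 (log2 fold change -0.25 to -0.22, adjusted p = 0.0525 to 0.0875), both by edgeR.

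PARP14, DTX3L and PARP9 all fell on depletion. PARP14, an ADP-ribosyltransferase, stood at 5.31, 5.92 and 5.04 CPM in the depletion libraries and 9.91, 9.71 and 9.83 CPM in the shRNA control. PARP14 was at 4.68, 5.01 and 4.36 CPM in the overexpression libraries and 6.58, 6.64 and 5.98 CPM in the vector control. The shRNA control libraries were the highest, and depletion and overexpression libraries were each below their control. It fell on depletion (log2 fold change -0.86, SE 0.09, edgeR adjusted p = 3.91e-06) and on overexpression (log2 fold change -0.45, SE 0.09, edgeR adjusted p = 0.00894). No other gene of the set was called in the same direction in both in the reported fit, while by DESeq2 LGALS3BP was also called lower in both. On overexpression PARP14 lost its call without overexpression replicate 3 (log2 fold change -0.40, adjusted p = 0.056) and with only the 6 libraries compared (log2 fold change -0.43, adjusted p = 0.109) by edgeR. DTX3L, a ubiquitin ligase, and PARP9, its partner, fell with log2 fold change -0.49, edgeR adjusted p = 2.12e-05 and with log2 fold change -0.38, edgeR adjusted p = 0.000348, and were a little higher between the controls (0.21 and 0.22). DTX3L lost its call between the controls without shRNA control replicate 2 (log2 fold change 0.19, adjusted p = 0.054) and PARP9 lost it without shRNA control replicate 1 (log2 fold change 0.20, adjusted p = 0.0518) by edgeR. DTX3L and PARP9 overlap on opposite strands, so their reads may be shared.

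SAMD9, a growth-restraining antiviral factor, stood at 9.87, 10.7 and 9.23 CPM in the depletion libraries and 12.2, 11.2 and 11.3 CPM in the shRNA control. SAMD9 was at 8.64, 8.66 and 8.27 CPM in the overexpression libraries and 6.35, 6.43 and 4.96 CPM in the vector control. Overexpression and vector control did not overlap, and it rose on overexpression (log2 fold change 0.52, SE 0.10, edgeR adjusted p = 0.0055), a call lost with only the 6 libraries compared (log2 fold change 0.54, adjusted p = 0.0812) by edgeR. It was also higher between the controls (log2 fold change 0.97, edgeR adjusted p = 7.6e-07), and on depletion it was not called (-0.22, edgeR adjusted p = 0.125). With only the 6 libraries compared and without vector control replicate 3, SAMD9 was called lower on depletion. SAMD9L, its neighbour, fell on depletion (log2 fold change -1.11, edgeR adjusted p = 0.0168) and had the largest log2 difference between the controls (3.23), but with 233 reads in all libraries. SAMD9L lost the depletion call without depletion replicate 1 or 3 or shRNA control replicate 1 or 2 (log2 fold change -1.139 to -0.999, adjusted p = 0.0548 to 0.0801) by edgeR.

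The IFITM proteins sit in membranes and hinder viral entry. IFITM2 stood at 8.27, 9.004 and 7.77 CPM in the depletion libraries and 9.46, 10.9 and 9.25 CPM in the shRNA control. IFITM2 was at 6.47, 5.91 and 6.01 CPM in the overexpression libraries and 3.76, 3.99 and 4.44 CPM in the vector control. It rose on overexpression (log2 fold change 0.60, SE 0.10, edgeR adjusted p = 0.00212) and was 2.43 times as high in the shRNA control as in the vector control (log2 fold change 1.28, edgeR adjusted p = 3.13e-08). Of the overexpression calls of the set, this one alone held under each alternative run. On depletion it was not called (-0.24, edgeR adjusted p = 0.0875), but it was called lower there with only the 6 libraries compared and without vector control replicate 3. IFITM3 averaged 43.5 ± 1.85 CPM in depletion and 57.1 ± 3.496 CPM in the shRNA control (SD, n = 3 each), and fell (log2 fold change -0.39, edgeR adjusted p = 0.000855). Between the controls it was 2.41 times as high (log2 fold change 1.27, edgeR adjusted p = 1.59e-09), while overexpression left it uncalled (0.12). IFITM1 was under 1 CPM and called between the controls (log2 fold change 0.90, edgeR adjusted p = 0.00663). The 3 genes are near copies of each other and IFITM1 and IFITM2 overlap, so reads may be shared among them.

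Among other antiviral effectors, TRIM22, a ubiquitin ligase that restrains viral transcription, stood at 1.07, 1.09 and 1.48 CPM in the depletion libraries and 2.40, 2.17 and 1.92 CPM in the shRNA control. TRIM22 was at 1.92, 1.74 and 1.87 CPM in the overexpression libraries and 1.98, 2.10 and 1.83 CPM in the vector control. It fell on depletion, without overlap (log2 fold change -0.84, SE 0.15, edgeR adjusted p = 0.000705), and the difference between the controls was not called (0.13, edgeR adjusted p = 0.496). It overlaps TRIM5, on the opposite strand, which held 42902 reads against 1887 for TRIM22. TRIM21, an antibody receptor in the cytosol, fell on depletion (log2 fold change -0.38, edgeR adjusted p = 0.00504), as did the exonuclease gene ISG20 (log2 fold change -0.38, edgeR adjusted p = 0.0136). ISG20 lost the call without depletion replicate 1 or shRNA control replicate 1 or 3 (log2 fold change -0.35 to -0.31, adjusted p = 0.0529 to 0.0747) by edgeR. RSAD2, which encodes viperin, was higher in the shRNA control than in the vector control (log2 fold change 1.43, edgeR adjusted p = 3.8e-07), as were the GTPase gene MX1 (0.44), the nucleotide kinase gene CMPK2 (0.41) and BST2 (1.06), which encodes tetherin. None of RSAD2, MX1, CMPK2 and BST2 was called on depletion or on overexpression. BST2 held 342 reads in all and lost its call between the controls without shRNA control replicate 2 or vector control replicate 2 (log2 fold change 0.71 to 0.86, adjusted p = 0.0645 to 0.101) by edgeR, and RSAD2 and CMPK2 overlap on opposite strands. With only the 6 libraries compared and without vector control replicate 3, BST2 was called lower on depletion.

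IFI6, a protein of mitochondria that protects from cell death, averaged 14.8 ± 0.996 CPM in depletion and 15.5 ± 1.02 CPM in the shRNA control, and 5.53 ± 1.138 CPM in overexpression and 5.39 ± 0.673 CPM in the vector control (SD, n = 3 each). It was 2.88 times as high between the controls (log2 fold change 1.53, edgeR adjusted p = 6.94e-08), with -0.07 on depletion and 0.04 on overexpression, neither called. IFI27, also of mitochondria, was called between the controls only in the reported fit (log2 fold change 1.04, edgeR adjusted p = 0.00749). It was called lower on depletion with no filter on low counts, with only the 6 libraries compared and without vector control replicate 3. XAF1 had no reads in overexpression replicates 2 and 3 and in vector control replicates 1 and 2, and at most 14 reads in any library.

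The remaining genes held the largest fall. IFI35, which binds the partner NMI and is released in inflammation, stood at 3.68, 3.85 and 3.79 CPM in the depletion libraries and 9.44, 9.28 and 8.81 CPM in the shRNA control. IFI35 was at 3.24, 2.58 and 2.59 CPM in the overexpression libraries and 2.58, 2.01 and 3.66 CPM in the vector control. The shRNA control stood far above the other groups, which lay between 2.01 and 3.85 CPM. IFI35 fell on depletion to 0.411 of the shRNA control (log2 fold change -1.28, SE 0.15, edgeR adjusted p = 1.73e-05), and was 3.35 times as high in the shRNA control as in the vector control (log2 fold change 1.74, edgeR adjusted p = 1.99e-07).

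LGALS3BP, a secreted glycoprotein that binds galectins, stood at 15.3, 16.0 and 15.8 CPM in the depletion libraries and 28.4, 28.1 and 26.8 CPM in the shRNA control. LGALS3BP was at 6.16, 6.68 and 7.60 CPM in the overexpression libraries and 7.60, 8.03 and 10.1 CPM in the vector control. It fell on depletion (log2 fold change -0.82, SE 0.10, edgeR adjusted p = 1.56e-05) and was higher between the controls (log2 fold change 1.70, edgeR adjusted p = 2.16e-09). On overexpression it was not called (-0.33, edgeR adjusted p = 0.0875), but it was called lower there by DESeq2, with no filter on low counts and without vector control replicate 1. IFI44, a cytoplasmic protein first described with microtubular aggregates, stood at 10.3, 11.2 and 9.50 CPM in the depletion libraries and 12.4, 12.1 and 10.8 CPM in the shRNA control. IFI44 was at 4.34, 4.73 and 5.06 CPM in the overexpression libraries and 3.38, 3.31 and 2.66 CPM in the vector control. It rose on overexpression (log2 fold change 0.59, SE 0.11, edgeR adjusted p = 0.00516) and was 3.76 times as high between the controls (log2 fold change 1.91, edgeR adjusted p = 1.35e-09), and the overexpression call was lost with only the 6 libraries compared (log2 fold change 0.61, adjusted p = 0.0726) by edgeR. Its depletion and shRNA control libraries overlapped (-0.19).

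EPSTI1, named for the contact of epithelium with stroma, stood at 1.21, 1.27 and 1.06 CPM in the depletion libraries and 0.656, 0.688 and 0.943 CPM in the shRNA control. EPSTI1 was at 1.34, 0.840 and 1.27 CPM in the overexpression libraries and 0.965, 0.841 and 0.789 CPM in the vector control. It rose on depletion (log2 fold change 0.63, SE 0.20, edgeR adjusted p = 0.0379), and the difference between the controls was not called (-0.19). EPSTI1 lost the call without depletion replicate 1 or 2 or shRNA control replicate 1 or 2 (log2 fold change 0.55 to 0.63, adjusted p = 0.0891 to 0.138) by edgeR. IFI44L, under 1 CPM, was called between the controls (log2 fold change 1.09, edgeR adjusted p = 0.000531), and PLSCR1, a phospholipid scramblase, in no comparison.

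Other genes of the pathway were read from a list of 42, of which 33 were tested. Of 9 interferon genes, IFNA1, IFNE and IFNL3 were listed at 0 in every library, which allows up to 3 reads per library for counting error only, and IFNB1, IFNW1, IFNG, IFNL1 and IFNL2 held 1 to 38 reads over all libraries. IFNK was tested, with 105 reads. None of IFNAR1, IFNAR2, IFNGR1, IFNGR2 and TYK2 was called on depletion, on overexpression or between the controls.

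On depletion 7 of the 33 pathway genes fell and none rose, against 10.4% of all tested genes lower and 9.4% higher, and their median log2 fold change was -0.12, against 0.00 over all genes tested. At an unadjusted edgeR p under 0.05, 0 were higher, and DESeq2 and limma voom called 0 higher. UBA7, the enzyme that activates ISG15 for conjugation, stood at 4.32, 4.08 and 4.36 CPM in the depletion libraries and 13.0, 12.2 and 10.9 CPM in the shRNA control. UBA7 was at 2.14, 1.97 and 1.92 CPM in the overexpression libraries and 2.53, 2.51 and 2.61 CPM in the vector control. It fell to 0.353 of the shRNA control (log2 fold change -1.50, SE 0.09, edgeR adjusted p = 1.06e-08) and was 4.72 times as high in the shRNA control as in the vector control (log2 fold change 2.24, edgeR adjusted p = 7.16e-11). UBE2L6, the next enzyme of that chain, fell as well (log2 fold change -0.95, edgeR adjusted p = 0.000348), as did TLR3, a sensor of viral RNA in endosomes (log2 fold change -0.65, edgeR adjusted p = 0.000813). STAT3 (-0.20), IL10RB (-0.28) and IFNK (-1.84) were also among the 7. STAT3 lost its call without depletion replicate 1 or 3 or any shRNA control replicate (log2 fold change -0.18 to -0.17, adjusted p = 0.0786 to 0.0955) and with no filter on low counts (log2 fold change -0.18, adjusted p = 0.0606), IL10RB without depletion replicate 1 or 3 or any shRNA control replicate (log2 fold change -0.28 to -0.18, adjusted p = 0.058 to 0.156) and with no filter on low counts (log2 fold change -0.25, adjusted p = 0.0815), and IFNK without any depletion replicate, overexpression replicate 2 or 3 or shRNA control replicate 1 or 3 (log2 fold change -2.20 to -1.45, adjusted p = 0.0523 to 0.197) and with a replicate block (log2 fold change -1.79, adjusted p = 0.0619).

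On overexpression, STING1, an adaptor of DNA sensing, was higher (log2 fold change 1.17, edgeR adjusted p = 0.0396) at under 1 CPM, and IFNLR1, a receptor chain of lambda interferons, was lower (log2 fold change -4.45, edgeR adjusted p = 0.00427). IFNLR1 held 78 reads in all, from 0 to 0.0250 CPM in overexpression and from 0.219 to 0.366 CPM in the vector control, so its fitted fold change depends on the prior count. By library IFNLR1 held 24, 18 and 26 reads in the vector control and 1, 0 and 2 in overexpression. It held 0, 1 and 4 reads in the shRNA control and 0, 2 and 0 in depletion, so the vector control alone stood high. STING1 lost its call without depletion replicate 2, overexpression replicate 1 or 2, any shRNA control replicate or vector control replicate 2 or 3 (log2 fold change 0.92 to 1.23, adjusted p = 0.0531 to 0.205), by limma voom (log2 fold change 1.12, adjusted p = 0.0889), with only the 6 libraries compared (log2 fold change 1.19, adjusted p = 0.172) and with a replicate block (log2 fold change 1.16, adjusted p = 0.0571). Of the 33 pathway genes these were the single calls in each direction, against 1.51% of all tested genes higher and 2.6% lower. Between the controls 14 of the 33 were higher and 2, IFNLR1 and TRIM25, were lower, against 21.7% of all tested genes higher and 21.3% lower. Beside UBA7 the higher ones included the feedback inhibitor SOCS3 (2.44, under 1 CPM), STING1 (1.49), TLR3 (1.19) and UBE2L6 (1.01).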

How the data were processed

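The authors deposited raw read counts per Ensembl gene ID for 12 libraries, which the labels describe as made from stranded total RNA. STAR 2.5.2a, featureCounts 1.5.0-p3 and DESeq2 1.14.1 are named in the submitters' processing notes, with hg19. No source used here gives the annotation release, the strand setting or the handling of reads that map to several places, so overlapping genes and near copies may share reads. Even numbers made up 57.2% to 62.4% of the deposited counts between 1 and 50. An excess of even numbers would arise if both mates of a pair were counted, which was not tested. Read numbers and the chi-square below are therefore not those of independent molecules with certainty.

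Members and lists were chosen with earlier results of these data known. The counts were tested with edgeR 4.0.16 in R 4.3.3: filterByExpr, TMM scaling, and glmQLFit and glmQLFTest on all 4 groups (8 residual degrees of freedom), with Benjamini-Hochberg adjustment over 26076 genes. The procedure was tested on simulated counts in which few genes differed between groups. A far larger share differed between the controls here, so that test does not cover this setting. Alternatives included DESeq2 1.42.0 and limma 3.58.1. Replicates differed by more than counting noise, with a chi-square of at least 6.55 times its degrees of freedom.

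Every library's value is printed for the transcription factors, the IFIT genes and, per comparison and direction, up to 6 called genes with the largest fold change among those with a group mean of at least 1 CPM. Promoters were ranked by calls and the first 6 printed. That every core lie before the start was required only after the promoters were seen. A few counted genes are not reported here by name.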

Additional observations from a re-analysis of the deposited data

How the results depend on the processing

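Counts of called genes of the set were compared over RLE scaling, other filters, DESeq2, limma voom, fits with only the libraries compared, a replicate block and each library left out. On depletion against the shRNA control the 20 calls ranged from 12 to 25 with a library left out, and on overexpression against the vector control the 6 calls ranged from 3 to 7 and were 1 with only the 6 libraries compared. With a library left out, the counts ran from 29 to 35 for the shRNA control against the vector control, from 23 to 32 for depletion against the vector control and from 10 to 21 for the difference of responses. Every other setting left each count within 1.5 times the reported one, and no gene of the set that was called in a comparison changed direction in it.

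Over all genes, the overexpression calls behind the background shares numbered 1072 in the reported fit, 327 with only the 6 libraries compared, 1781 by DESeq2, 2062 with no filter and 501 to 1842 with a library left out. The depletion calls numbered 5172, 8115 with only the 6 libraries compared and 3523 to 8359 with a library left out. In the reported fit 11211 genes were called between the controls, 9081 for depletion against the vector control and 2840 for the difference of responses. With a library left out these ran from 9514 to 12344, from 7328 to 10422 and from 1909 to 5320, in that order.

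Whether the replicate numbers pair the samples was not settled. Deviations from group means of same-numbered libraries had a correlation of -0.11 to 0.32 across 15065 genes, with a median of 0.03 over 18 pairs. For libraries of different number the range was -0.38 to 0.33, with a median of -0.04 over 36 pairs. Of 12 libraries, 6 correlated best with a library of their own number. With the replicate number as a block, 19 genes of the set were called on depletion, 5 on overexpression, 33 between the controls, 26 for depletion against the vector control and 16 for the difference. Over all 26076 genes tested, 5272, 1098, 11308, 9265 and 2959 were called with that block, in the same order. Counting error weighs most on the tested genes under 1 CPM in every library (OAS2, SAMD9L, IFITM1, BST2 and IFI44L).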
